A study of Mus musculus with 26 samples.

Results

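Kupffer cells are the resident macrophages of the liver, and their marker genes were read here in mouse liver tumours and control livers. The 10 markers were taken by symbol from the 35976 entries of the deposited table of counts, and all 10 were found. They fall into 5 markers of resident Kupffer cells (Clec4f, Vsig4, Timd4, Cd5l and Marco) and 5 markers of macrophages in general (Adgre1, Csf1r, Cd68, C1qa and Cd163). The short account is that 4 of the 10 were several-fold lower in tumours of both replicated genotypes: Clec4f, Vsig4, Cd5l and C1qa. They had no overlap with control livers. Of all genes tested, 20.9% in Cyp1a2_CA and 26.2% in Gls2_CA were also lower with no overlap. Adgre1 did not pass the test in either genotype. Csf1r and Cd68 were not lower in either. Both were called higher in Gls2_CA, calls that were lost in most fits that left out 1 animal. A correction for gene length and GC content made Csf1r lower in Cyp1a2_CA and removed its Gls2_CA call. With that correction Cd68 was higher in both genotypes.

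Kupffer cells sit inside the liver sinusoids, where they take up particles, microbes, lipoproteins and worn-out red cells from portal blood. They are seeded before birth and largely renew themselves, and monocytes from the blood can take their place and acquire their genes over time. Clec4f is the marker most restricted to them, whereas Adgre1 (the F4/80 antigen) and Csf1r are carried by macrophages of many tissues and Csf1r also by monocytes.

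The study used bulk RNA sequencing, with 20 tumour libraries and 6 control libraries. Cyp1a2_CA mice carried Cyp1a2-CreERT2, a Ctnnb1 allele whose exon 3 is flanked by loxP sites on 1 chromosome, Ctnnb1(ex3)fl/+, and Arid2fl/fl (10 libraries, 9 animal numbers). Gls2_CA mice carried the same Ctnnb1 and Arid2 alleles with Gls2-CreERT2 (9 libraries, 5 animal numbers), and the single Cyp1a2_C library came from a mouse with Cyp1a2-CreERT2 and Ctnnb1(ex3)fl/+ and no Arid2 allele in its label. CreERT2 is a Cre recombinase that works once tamoxifen is given. Cyp1a2 is a gene of hepatocytes around the central vein and Gls2 of hepatocytes around the portal vein, so the promoters that drive Cre here are those of hepatocyte genes. The tumour mice were of mixed C57BL/6J and Swiss Webster background, received tamoxifen on postnatal day 28 and were followed for 6 to 12 months. The 6 WT mice were C57BL/6J, received an adeno-associated virus with Cre, and were kept on normal chow for up to 12 months. Strain, virus, tamoxifen, follow-up and genotype change together between tumours and WT and cannot be told apart, and both tumour groups are compared with the same 6 WT mice.

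Levels are CPM, the share of the TMM-scaled library total that a gene takes, given as mean ± SD (n animals). Total counts ran from 36992043 to 49254470 in tumour libraries and from 13486530 to 16975288 in WT libraries. Genes of different exon length differed in their change: in Cyp1a2_CA against WT the median log2 fold change was -1.0 for genes of up to 1000 exonic bases and 1.27 for those over 8000, and in Gls2_CA it was -1.08 and 1.24. Values with an offset for exon length and GC content are therefore given where the offset changed the call of a member, and for some others. It also moved members without a change of call. In Cyp1a2_CA against WT Timd4 went from -0.74 to -0.28, Cd5l from -2.10 to -1.73 and Cd163 from -1.93 to -2.39. The label of the Cyp1a2_C library is in doubt. Its Arid2 was 41.8 CPM, against 61.1 to 73.2 in WT, although its label names no Arid2 allele. Arid2 was 24.9 to 36.9 CPM in Cyp1a2_CA libraries and 23.3 to 46.2 in Gls2_CA libraries. Xist and the Y-linked Ddx3y were both above 10 CPM in 2 libraries, the Cyp1a2_C library and that of the Gls2_CA animal GAB229. The GAB229 library had Arid2 at 23.3 CPM, and the source of its Xist and Ddx3y counts was not tested. In 4 libraries Ttn, a giant muscle protein gene, exceeded 1000 CPM, and values without them are given where they matter. Nothing in the labels says whether the tissue pieces were freed of surrounding liver, and in bulk RNA fewer cells of a type and less RNA per cell cannot be told apart.

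The stretch just upstream of the start site was examined for 7 of the 10 members, with sequences from RefSeq promoters (build GRCm38.p6). The sequences of 5 members are shown because they include 3 resident markers that were lower in tumours (Clec4f, Vsig4 and Cd5l), 1 resident marker that differed less (Timd4), and 1 general marker that was not lower (Cd68). Each is written 5′ to 3′ on the strand of the gene. Capitals mark GAGGAAG or its reverse complement CTTCCTC, an exact form of the letters bound by PU.1, a factor needed for the macrophage lineage. Shorter or variant forms, such as gaggaa in Vsig4 and Cd68, are not marked.
Clec4f (chr6:83656188-83656366, minus strand): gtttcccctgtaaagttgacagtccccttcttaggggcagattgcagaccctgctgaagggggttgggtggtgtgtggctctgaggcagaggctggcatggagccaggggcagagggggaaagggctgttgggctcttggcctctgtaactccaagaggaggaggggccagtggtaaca
Vsig4 (chrX:96293439-96293688, minus strand): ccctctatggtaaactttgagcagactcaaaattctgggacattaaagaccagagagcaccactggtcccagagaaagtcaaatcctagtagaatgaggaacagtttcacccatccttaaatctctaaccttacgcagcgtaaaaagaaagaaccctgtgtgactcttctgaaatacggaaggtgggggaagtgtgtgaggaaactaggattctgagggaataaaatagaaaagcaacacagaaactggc
Cd5l (chr3:87357631-87357880, plus strand): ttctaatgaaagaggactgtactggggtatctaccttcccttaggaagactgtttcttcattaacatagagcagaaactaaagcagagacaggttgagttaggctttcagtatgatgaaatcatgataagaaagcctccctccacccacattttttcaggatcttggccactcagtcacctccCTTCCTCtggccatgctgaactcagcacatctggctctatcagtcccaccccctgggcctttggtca
Timd4 (chr11:46810549-46810798, plus strand): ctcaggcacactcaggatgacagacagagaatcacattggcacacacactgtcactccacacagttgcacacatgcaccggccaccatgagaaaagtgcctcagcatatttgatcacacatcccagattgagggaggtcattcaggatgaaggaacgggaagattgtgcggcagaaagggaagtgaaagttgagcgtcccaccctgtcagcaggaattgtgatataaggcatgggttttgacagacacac
Cd68 (chr11:69666171-69666420, minus strand): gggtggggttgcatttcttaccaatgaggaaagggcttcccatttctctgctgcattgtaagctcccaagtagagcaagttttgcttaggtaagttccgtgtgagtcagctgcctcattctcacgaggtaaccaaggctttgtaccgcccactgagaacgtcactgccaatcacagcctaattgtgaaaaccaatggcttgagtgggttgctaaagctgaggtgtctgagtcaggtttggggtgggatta
The PU.1 letters were found in Cd5l, 67 bases before the start, and in Marco, 146 bases before it. They occurred in 10.7% of 32526 promoter windows of 250 bases. Clec4f, Vsig4, Timd4, Cd68 and Cd163 did not hold this exact form in the window, and variant forms were not counted. A match of letters is a description and not a binding site.

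Clec4f, a C-type lectin of Kupffer cells that binds glycans with galactose and N-acetylgalactosamine (chr6:83644542-83656187), was 75.0 ± 4.65 CPM in WT (n = 6), with a lowest value of 66.1, a median of 76.0 and a highest of 79.5. In Cyp1a2_CA it was 10.5 ± 6.58 CPM (n = 9), from 2.91 through a median of 8.80 to 21.3. The 5 Gls2_CA animals had 7.69, 12.3, 14.9, 20.9 and 11.0 CPM. Every tumour animal lay below every WT animal, and the highest tumour value was well below the lowest WT value. The log2 fold change was -2.92 in Cyp1a2_CA (SE 0.36, 7.55-fold lower, edgeR adjusted p = 2.4e-06) and -2.56 in Gls2_CA (SE 0.23, 5.91-fold lower, edgeR adjusted p = 1.1e-06). Lower calls made up 32.7% of all genes tested in the first comparison and 34.0% in the second, and groups with no overlap in that direction 20.9% and 26.2% (23.4% and 29.8% in the higher direction), so passing the test was common among all genes.

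Vsig4, a complement receptor of the immunoglobulin family that captures opsonised bacteria from the blood (chrX:96247203-96293438), changed by nearly as much. It was 18.6 ± 2.70 CPM in WT, with 16.6 as the lowest and 23.6 as the highest value. It was 2.73 ± 1.33 CPM in Cyp1a2_CA, from 0.985 to 4.85, and 1.71, 4.24, 2.71, 3.88 and 3.09 CPM in the 5 Gls2_CA animals. No tumour animal overlapped with WT. That is a log2 fold change of -2.84 (SE 0.30, edgeR adjusted p = 3.8e-07) in Cyp1a2_CA and -2.65 (SE 0.23, edgeR adjusted p = 9.5e-07) in Gls2_CA. With the length and GC offset it was -2.23 and -1.80.

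Cd5l, a secreted protein of tissue macrophages that takes part in lipid handling and survival (chr3:87357881-87371073), was 64.4 ± 13.0 CPM in WT. It was 15.8 ± 9.32 CPM in Cyp1a2_CA, from 5.31 to 34.8, and 19.6, 17.6, 11.7, 26.3 and 25.5 CPM in Gls2_CA. All 14 tumour animals lay below the lowest WT animal, which had 54.1 CPM. This gave a log2 fold change of -2.10 (SE 0.32, edgeR adjusted p = 2.9e-05) in Cyp1a2_CA and -1.77 (SE 0.21, edgeR adjusted p = 1.4e-05) in Gls2_CA.

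The other 2 resident markers differed less. Timd4, a phosphatidylserine receptor for the uptake of dying cells and a marker of long-lived resident macrophages (chr11:46810800-46844332), was 6.73 ± 1.12 CPM in WT, from 5.14 to 8.23. It was 4.26 ± 2.91 CPM in Cyp1a2_CA, from 1.20 to 10.9 with a median of 3.13, and 1.95, 4.62, 3.0, 4.95 and 6.77 CPM in Gls2_CA. In Cyp1a2_CA 7 of 9 animals lay below all WT animals and 1 lay above them. The log2 fold change was -0.74 in each genotype, with an edgeR adjusted p of 0.077 in Cyp1a2_CA and 0.030 in Gls2_CA. The Gls2_CA call did not hold with the length and GC offset (log2 fold change -0.14, edgeR adjusted p = 0.63), nor without WT animal 1 or 2 (edgeR adjusted p = 0.061 and 0.056). Without CAB228, the animal at 10.9 CPM, Timd4 was called in Cyp1a2_CA as well (-1.05, edgeR adjusted p = 0.0040).

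Marco, a scavenger receptor for bacteria and particles (chr1:120474538-120505024), was 6.84 ± 2.17 CPM in WT, from 4.92 to 10.3. It was 2.97 ± 2.92 CPM in Cyp1a2_CA, from 0.240 to 9.42, and 1.95, 3.11, 1.88, 14.9 and 3.97 CPM in Gls2_CA. In Gls2_CA 4 animals lay below every WT animal and the fifth, GAB242, lay above every WT animal. The log2 fold change was -1.28 (SE 0.56, edgeR adjusted p = 0.052) in Cyp1a2_CA and -0.49 (SE 0.51, edgeR adjusted p = 0.40) in Gls2_CA. Without GAB242 the Gls2_CA value was -1.39 with an edgeR adjusted p of 0.0018. Leaving out CAB145, CAB52, CAB225 or CAB228 brought the Cyp1a2_CA value past the threshold, with edgeR adjusted p from 0.0061 to 0.050.

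**Figure D1:**
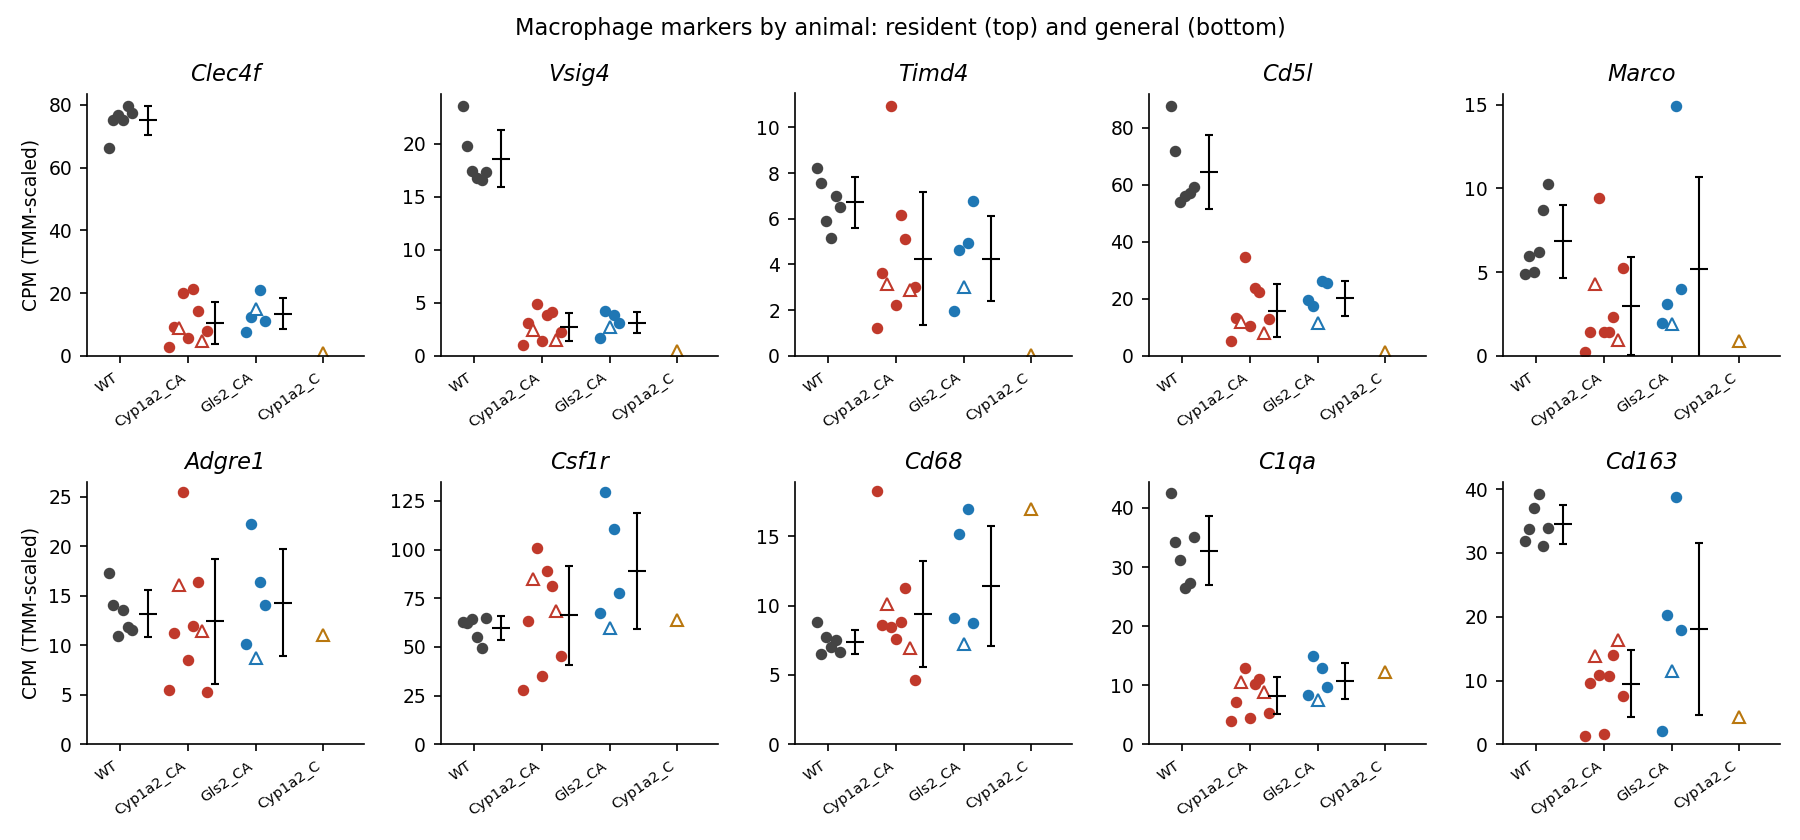
CPM of the 10 markers in each animal, on linear axes, by group, with the mean and SD as bars (cut at 0). Triangles are animals with a library in which Ttn exceeded 1000 CPM, and Clec4f, Vsig4, Cd5l and C1qa show no overlap between the tumour animals and WT.

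Among the general markers, C1qa behaved unlike Adgre1, Csf1r and Cd68. C1qa, a chain of complement component C1q that macrophages secrete (chr4:136895917-136898803), was 32.8 ± 5.89 CPM in WT, from 26.4 to 42.5. It was 8.26 ± 3.19 CPM in Cyp1a2_CA, from 3.99 to 12.9, and 8.41, 14.9, 7.52, 12.9 and 9.78 CPM in Gls2_CA. Every tumour animal lay below every WT animal. The tumours thus differed from WT by a log2 fold change of -2.06 (SE 0.24, edgeR adjusted p = 1.4e-06) in Cyp1a2_CA and -1.70 (SE 0.20, edgeR adjusted p = 1.1e-05) in Gls2_CA, and with the offset it was -1.76 and -1.29.

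Cd163, the receptor through which macrophages clear haemoglobin bound to haptoglobin (chr6:124304656-124330527), was 34.5 ± 3.09 CPM in WT, from 31.1 to 39.2. It was 9.53 ± 5.23 CPM in Cyp1a2_CA, from 1.35 to 16.3, and all 9 animals lay below WT. The Gls2_CA animals had 2.11, 20.2, 11.5, 38.8 and 17.9 CPM, so 4 lay below WT and GAB242 lay within its range. By edgeR the log2 fold change was -1.93 (SE 0.42, edgeR adjusted p = 0.00073) in Cyp1a2_CA. In Gls2_CA it was -1.01 (SE 0.49, edgeR adjusted p = 0.080), and with the offset -1.37 (edgeR adjusted p = 0.025). It was called without GAB242 (-1.48, edgeR adjusted p = 0.014) and without GAB18, the animal at 2.11 CPM (-0.72, edgeR adjusted p = 0.031).

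Adgre1, the adhesion receptor that carries the F4/80 antigen (chr17:57358691-57483527), was 13.2 ± 2.34 CPM in WT, 12.4 ± 6.30 in Cyp1a2_CA and 14.3 ± 5.40 in Gls2_CA. The 3 groups overlapped, and the tumour animals spread more widely (5.24 to 25.5 CPM) than WT (10.9 to 17.3). Against WT the log2 fold change was -0.16 (95% interval -0.78 to 0.46, edgeR adjusted p = 0.63) in Cyp1a2_CA and 0.03 (-0.47 to 0.53, edgeR adjusted p = 0.91) in Gls2_CA. Both intervals exclude a fall of the size seen for Clec4f.

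Csf1r, the receptor for the growth factors Csf1 and Il34 on which macrophages depend (chr18:61100598-61132149), was 59.8 ± 6.18 CPM in WT, 66.3 ± 25.5 in Cyp1a2_CA and 89.1 ± 29.8 in Gls2_CA. The Gls2_CA animals had 67.6, 130, 59.9, 111 and 77.9 CPM, of which 4 were above all WT animals. In Cyp1a2_CA 5 of 9 animals lay above WT and 3 lay below. The fitted log2 fold change was 0.07 (edgeR adjusted p = 0.80) in Cyp1a2_CA and 0.49 (SE 0.19, edgeR adjusted p = 0.035) in Gls2_CA. Csf1r has 5774 exonic bases, and with the offset the values were -0.55 (edgeR adjusted p = 0.043) and -0.11 (edgeR adjusted p = 0.66), so neither its direction nor its calls held. The Gls2_CA call was also lost in 8 of 11 fits that left out 1 animal (edgeR adjusted p from 0.052 to 0.10). The animals were GAB229, whose library had Xist and Ddx3y both above 10 CPM, GAB242 and each of the 6 WT animals.

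Cd68, a lysosomal membrane protein of phagocytes (chr11:69664213-69666153), was 7.36 ± 0.853 CPM in WT and 9.39 ± 3.81 in Cyp1a2_CA. The Gls2_CA animals had 9.14, 15.2, 7.20, 17.0 and 8.74 CPM. The log2 fold change was 0.28 (edgeR adjusted p = 0.29) in Cyp1a2_CA and 0.55 (SE 0.22, edgeR adjusted p = 0.039) in Gls2_CA. The latter call was lost in 7 of 11 fits that left out 1 animal, GAB229, GAB242 or WT animals 2 to 6 (edgeR adjusted p from 0.065 to 0.12). Cd68 is short, with 1257 exonic bases, and with the offset it was higher in both, by 0.84 (edgeR adjusted p = 0.0071) and 1.25 (edgeR adjusted p = 0.00011).

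Of the 10 markers, 5 were lower and 0 higher in Cyp1a2_CA, where 70.9% of 16841 genes tested were called in either direction, 32.7% lower and 38.3% higher. In Gls2_CA 5 were lower and 2 higher, where 73.2% of 14976 genes were called, 34.0% lower and 39.2% higher. The median log2 fold change was -2.10 over the resident markers and -0.16 over the general markers in Cyp1a2_CA, and -1.77 and 0.03 in Gls2_CA. Over all genes tested it was 0.17 and 0.14. With the length and GC offset the medians of the resident and general markers were -1.73 and -0.55 in Cyp1a2_CA and -1.26 and -0.11 in Gls2_CA, so the classes lay closer together. A call in itself therefore says little about the markers in these comparisons, and they differed from each other mainly in size.

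**Figure D2:**
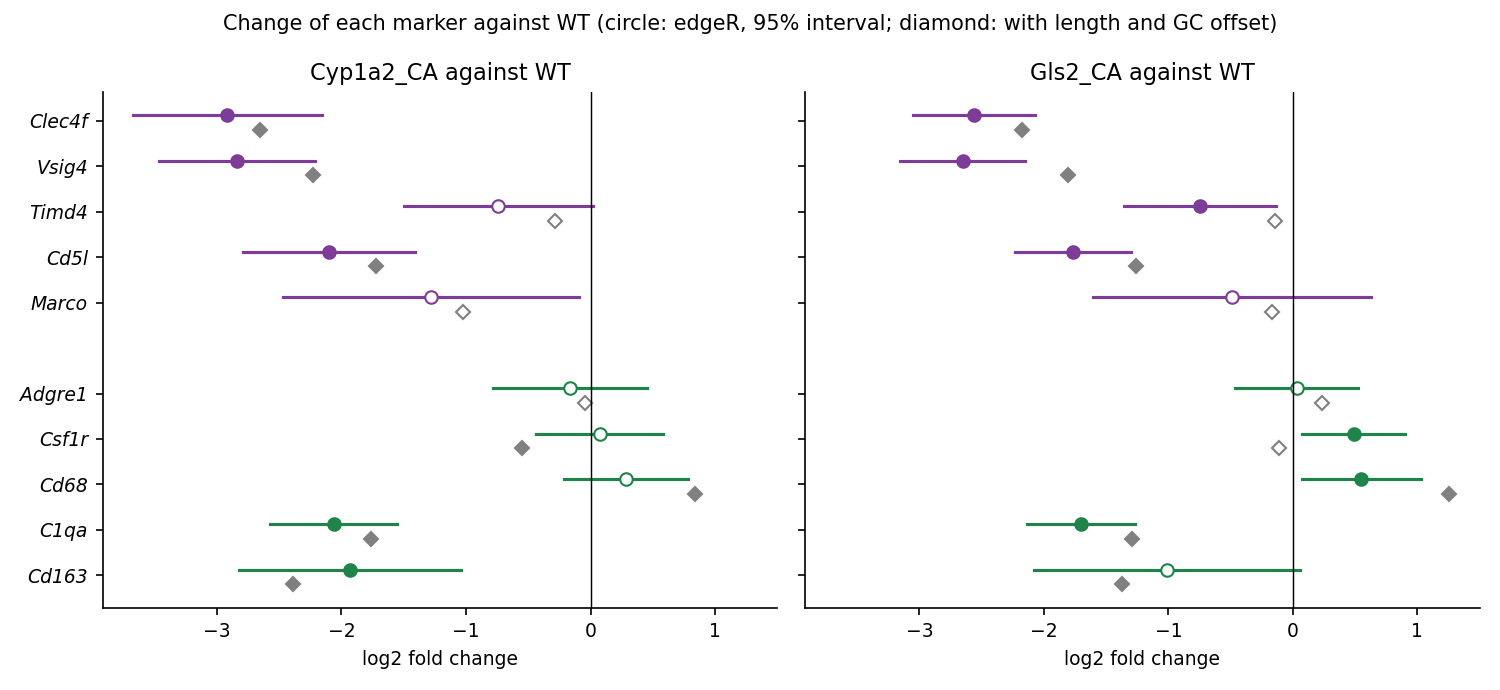
Log2 fold change against WT of each marker in Cyp1a2_CA and in Gls2_CA, with 95% intervals, grey diamonds for the value with the length and GC offset, and filled symbols where the edgeR adjusted p was under 0.05. Clec4f and Vsig4 lie below -2.5 in both genotypes, and Adgre1 lies near 0.

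**Figure D3:**
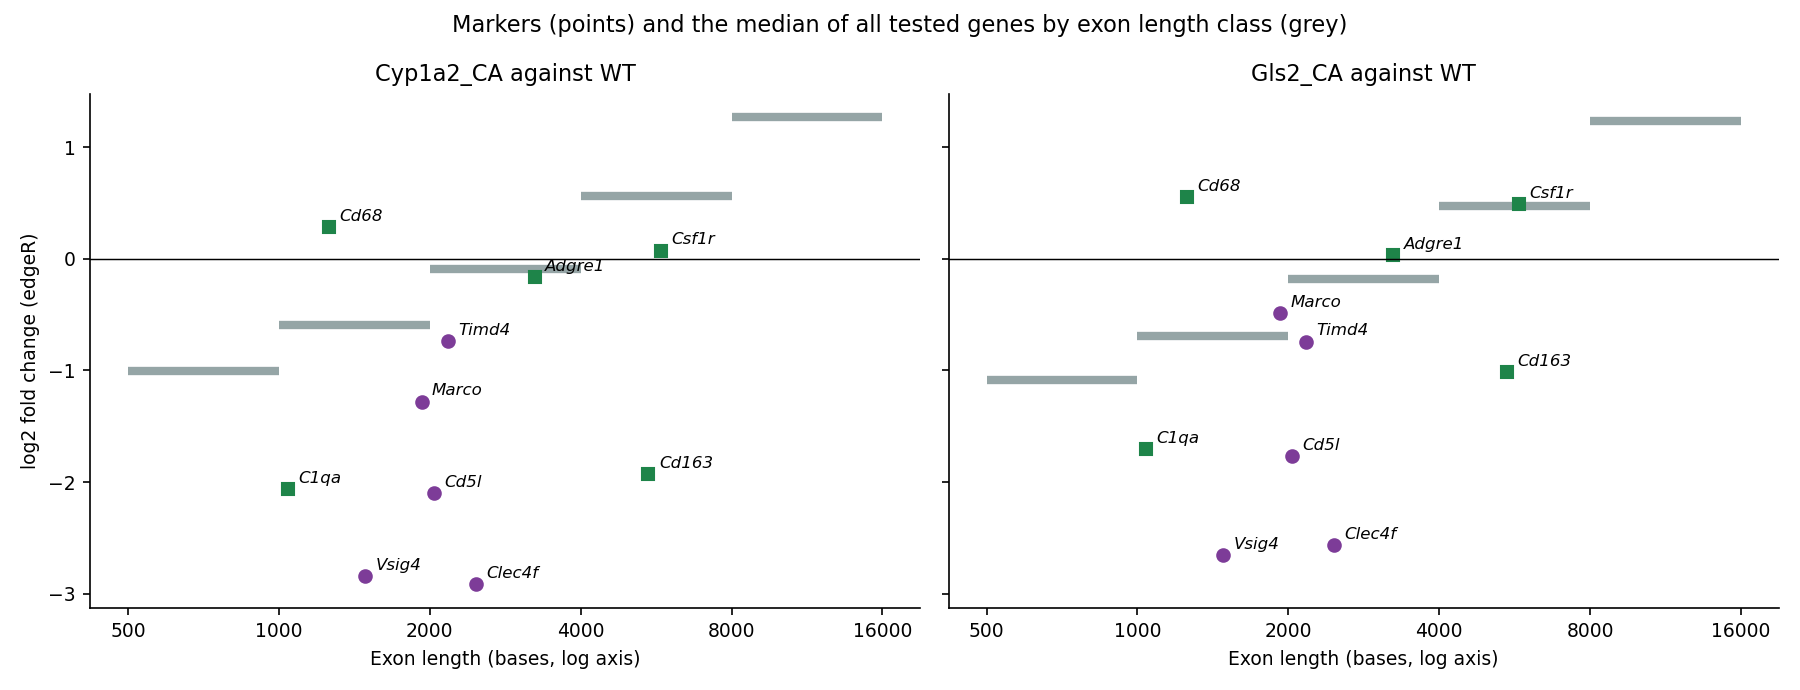
Median log2 fold change against WT of all genes by exon length class, with the 10 markers at their own exon length. The class medians run from -1.0 to 1.27 in Cyp1a2_CA, while Clec4f (2471 bases) and Cd163 (5461 bases) lie below the medians of their classes.

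The balance between the marker classes was read within each animal. The 5 resident markers summed to 172 ± 12.2 CPM in WT, 36.3 ± 21.7 in Cyp1a2_CA and 46.0 ± 15.6 in Gls2_CA. The 5 general markers summed to 148 ± 12.2, 106 ± 37.6 and 144 ± 52.1 CPM. Csf1r, a long gene, made up 59.8, 66.3 and 89.1 CPM of these sums on average. The sums and their ratio carry no length and GC offset. The ratio of the sums was 1.17 ± 0.0925 in WT, from 1.05 to 1.33, against 0.334 ± 0.123 in Cyp1a2_CA and 0.332 ± 0.0724 in Gls2_CA. All 14 tumour animals had a lower ratio than any WT animal. For the general sum 7 of the 14 lay below all WT animals, 2 above and the others within their range. The ratio has no test, because the markers were chosen with results of these data known.

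**Figure D4:**
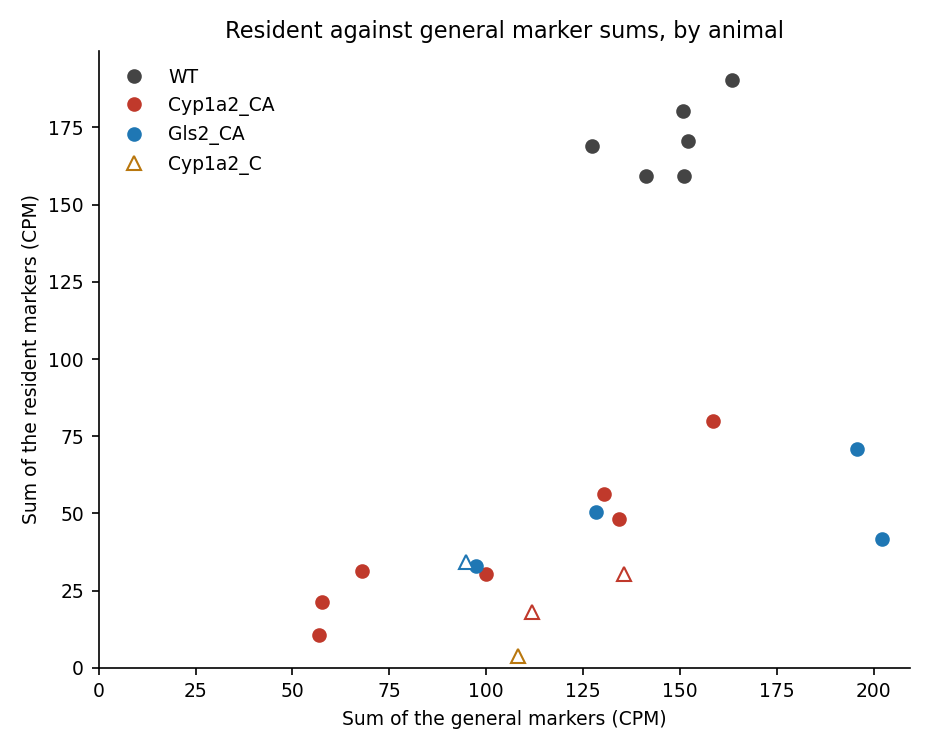
Summed CPM of the 5 general markers (horizontal) against that of the 5 resident markers (vertical) in each animal. The WT animals sit at 159 to 190 CPM of resident markers, and the tumour animals at 10.6 to 79.9.

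Ratios of single markers showed where the profile changed. Clec4f per Csf1r was 1.27 ± 0.193 in WT, 0.152 ± 0.0530 in Cyp1a2_CA and 0.158 ± 0.0622 in Gls2_CA. C1qa per Csf1r was 0.547 ± 0.0701 in WT, and it was narrow in tumours, at 0.126 ± 0.0100 in Cyp1a2_CA and 0.121 ± 0.00525 in Gls2_CA. Tumour animals thus differed up to several-fold in the level of each of these genes while holding nearly 1 ratio between them. C1qa is short (1040 exonic bases) and Csf1r long (5774), and the length and GC offset brought their log2 fold changes closer, to -1.76 and -0.55 in Cyp1a2_CA and -1.29 and -0.11 in Gls2_CA. Within the resident class the ratios moved as well. Timd4 per Clec4f was 0.0905 ± 0.0199 in WT, and it was 0.417 ± 0.102 in Cyp1a2_CA and 0.336 ± 0.169 in Gls2_CA, above every WT animal in all 14. Vsig4 per Clec4f was 0.251 ± 0.0551, 0.283 ± 0.0531 and 0.243 ± 0.0689, and none of these 14 tumour animals exceeded the highest WT value of 0.357, while the Cyp1a2_C library was at 0.545.

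Per kilobase of exon, the level of the markers followed a different order in WT and in tumours. In WT Cd5l (31.6 CPM per kb), C1qa (31.5) and Clec4f (30.4) led, their ranges overlapped, and all lay above Vsig4 (12.5), whose range overlapped with that of Csf1r (10.4). Cd163, Cd68, Adgre1, Marco and Timd4 followed, from 6.31 to 3.10 CPM per kb, each overlapping with the next. In Cyp1a2_CA and Gls2_CA Csf1r led (11.5 and 15.4 CPM per kb), followed by C1qa, Cd5l, Cd68 and Clec4f. All neighbours in the tumour orders overlapped. These levels carry no length and GC offset, and Csf1r is the longest of the markers (5774 exonic bases). Division by exon length does not remove the difference in change between short and long genes. With the offset the Cyp1a2_CA log2 fold change was -0.55 for Csf1r and 0.84 for Cd68. Whether Csf1r would still lead with the offset was not tested.

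None of the 10 markers passed the test between Cyp1a2_CA and Gls2_CA tumours. The comparison asks whether tumours started from central-vein and portal-vein hepatocytes differ in their macrophages. By edgeR 0 of 17129 genes were called (0%), 554 had an unadjusted p under 0.05, and none of these was a marker. DESeq2 called 20 genes and limma-voom with quality weights 10, again no marker. The intervals are wide: the log2 difference of Cyp1a2_CA from Gls2_CA was -0.35 for Clec4f (95% interval -1.26 to 0.55), -0.43 for Csf1r (-1.06 to 0.20), -0.38 for C1qa (-0.99 to 0.23) and -0.93 for Cd163 (-2.22 to 0.35). Of 200 genes changed 2-fold in simulated counts, this comparison recovered 1.5%, so differences of that size would mostly have been missed.

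The Cyp1a2_C library had the lowest level of 4 resident markers among all tumour animals, and no replicate. Clec4f was 0.851 CPM (44 reads, 95% exact Poisson interval 0.618 to 1.14), Vsig4 0.464 CPM (24 reads) and Cd5l 1.43 CPM (74 reads). Timd4 had 3 reads (0.0580 CPM, interval 0.0120 to 0.169), while the other tumour animals had at least 1.20 CPM. Marco, at 0.870 CPM, was above 1 of the 14 others. Its general markers lay in or near the range of the others: Csf1r was 63.8 CPM, Adgre1 11.0, Cd68 16.9, C1qa 12.3 and Cd163 4.33. Its ratio of resident to general markers was 0.0339. The intervals cover counting error only, and this library is 1 of those with high Ttn.

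Libraries of the same animal differed. The 3 libraries of GAB294 had Cd163 at 1.66, 10.9 and 41.4 CPM and Clec4f at 4.34, 9.25 and 19.3 CPM. Those of GAB242 had Marco at 4.81, 21.4 and 17.5 CPM. In CAB28 Clec4f was 17.3 and 10.1 CPM in its 2 libraries, while Adgre1 was 16.0 and 16.2. The spread of Cd163 within 1 animal was thus as wide as that between Gls2_CA animals.

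Across the 11 tumour animals without high Ttn the markers varied together, which is given as a description with 1 value per animal, each pair of values being read from the same libraries. The Spearman correlation had a median of 0.75 over pairs of resident markers (0.58 to 0.86), 0.86 over pairs of general markers (0.26 to 0.99) and 0.74 between the classes (-0.15 to 0.91). Among 12491 genes, those closest to Clec4f were Fermt3, Rgs10 and Trpm2 (0.94) and Axl and Slc37a4 (0.92). Those closest to Csf1r were C1qa (0.99), Fam49a (0.98), Arhgap30 and C1qc (0.97) and Kcnj16 (0.96). Cd68 stood apart and ran with the others at -0.15 to 0.32. Its highest value in Cyp1a2_CA, 18.2 CPM, came from CAB145, the animal with the lowest Clec4f.

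Other genes of the same cells were read from lists drawn up with the markers. Of 8 further Kupffer cell genes, 5 were lower and 1 higher in Cyp1a2_CA, and 4 and 1 in Gls2_CA, where 32.7% and 34.0% of all genes were lower and 38.3% and 39.2% higher. Spic, a factor of iron-handling macrophages, had a log2 fold change of -1.60 (SE 0.32, edgeR adjusted p = 0.00029) in Cyp1a2_CA and -1.49 (SE 0.46, edgeR adjusted p = 0.012) in Gls2_CA, and Fcna, a ficolin of the lectin complement pathway, -1.31 and -1.07. Folr2, a folate receptor of resident macrophages, had -1.26 and -0.91, and with the length and GC offset it was not called (edgeR adjusted p = 0.062 and 0.28). Nr1h3, the nuclear receptor LXR-alpha, which hepatocytes also express, was higher (0.80 and 0.71). Of 15 further macrophage genes, 8 and 7 were lower and 0 and 1 higher. The median log2 fold change of this list was -0.60 in Cyp1a2_CA and -0.42 in Gls2_CA. Its genes not called in Cyp1a2_CA lay from -0.33 (Msr1) to 0.22 (Spi1), with Mpeg1 at -0.09 and Ctss at -0.03. The genes named next had the smallest p in Cyp1a2_CA. Tyrobp, an adaptor of activating receptors, had -2.33 and -1.92, Mrc1, a mannose receptor that sinusoidal endothelium shares, -2.42 and -2.31, C1qb -2.06 and -1.66, and the Fc receptor gene Fcgr1 -2.15 and -1.90.

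Genes of recruited monocytes and of lipid-associated macrophages were read next. Of 6 tested monocyte genes, 2 were higher in Cyp1a2_CA and 3 in Gls2_CA, with none lower, beside 38.3% and 39.2% of all genes higher, so these counts are not a result about the list. Their sum was 6.49 to 11.7 CPM in WT, 8.18 to 23.2 in Cyp1a2_CA and 11.1 to 20.4 in Gls2_CA. Itgax, the integrin CD11c, had a log2 fold change of 1.46 and 2.01. Ccr2, the receptor that draws monocytes from the marrow, had 1.14 and 0.98. With the length and GC offset Ccr2 was not called (edgeR adjusted p = 0.071 and 0.16). The other tested monocyte genes were not called in Cyp1a2_CA. Cx3cr1 was 0.89, Ly6c2 0.18, Plac8 0.07 and Itgam -0.21 there (edgeR adjusted p = 0.093, 0.67, 0.85 and 0.64). Of the lipid-associated list 4 of 6 tested genes were higher in Cyp1a2_CA and 4 of 5 in Gls2_CA, beside 38.3% and 39.2% of all genes. With the offset 3 were higher in Cyp1a2_CA and 3 in Gls2_CA. Trem2, of the same list, was not called in Cyp1a2_CA (0.44, edgeR adjusted p = 0.59). Gpnmb, a lysosomal glycoprotein, had 4.48 (SE 1.05, edgeR adjusted p = 0.0013) and 3.44 (SE 0.55, edgeR adjusted p = 0.00013). The WT level of Gpnmb was very low, with a mean of 0.166 CPM and a lowest value of 0. In Cyp1a2_CA it ran from 0.538 through a median of 1.38 to 18.2 CPM, and in Gls2_CA from 1.03 to 3.23. Every animal of both genotypes lay above every WT animal, but the size of the fold change rests on that low WT level. Fabp5, a fatty acid carrier, was lower (-2.02 and -3.32). Spp1 and Lpl, which epithelial and other cells also express, were higher (1.09 and 0.92, 1.46 and 0.86), but with the offset Lpl was not called (edgeR adjusted p = 0.32 and 0.99).

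Of the genes of the Kupffer cell niche, 4 of 8 tested were lower and 1 higher in Cyp1a2_CA, and 3 of 7 lower and 1 higher in Gls2_CA, against 32.7% and 34.0% of all genes lower. The BMP ligands Gdf2 and Bmp10, which are made by stellate cells and help to maintain Kupffer cells, had log2 fold changes of -3.44 and -3.34, and -2.69 and -2.59. Dll4, the Notch ligand of the endothelium, had -0.65 and -1.01. Csf1 fell in Cyp1a2_CA (-0.85, edgeR adjusted p = 0.0010) and was not called in Gls2_CA (-0.45), although with the offset it was lower there too (-0.94, edgeR adjusted p = 0.012). Il34, the other Csf1r ligand, was higher (1.35 and 1.10). All 5 endothelial markers were lower in both genotypes, with Stab2 at -2.34 and -2.47. Their sum was 230 to 266 CPM in WT, 33.5 to 105 in Cyp1a2_CA and 26.0 to 88.6 in Gls2_CA. Hepatocyte markers also fell (4 and 3 of 4 lower, Alb -2.39 and -3.23). Their sum was 74246 to 97098 CPM in WT, 10486 to 48009 in Cyp1a2_CA and 4289 to 25632 in Gls2_CA. The part of these moves in the marker changes was not tested.

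Ptprc, the CD45 antigen of all leukocytes, was higher (1.76 and 2.28), but with the offset its values were 0.33 (edgeR adjusted p = 0.12) and 0.89 (edgeR adjusted p = 0.0065). Laptm5, a lysosomal protein gene of leukocytes, was not called in either, and with the offset it was lower in both (-0.76, edgeR adjusted p = 0.0044, and -0.49, edgeR adjusted p = 0.015). Coro1a, the remaining gene of this list, was 0.51 in Cyp1a2_CA (edgeR adjusted p = 0.071) and was called higher in Gls2_CA. With the offset Coro1a was called in neither. Of 5 dendritic cell genes, 2 of 5 tested were higher in Cyp1a2_CA and 3 of 3 tested in Gls2_CA, with none lower. Of all genes, 38.3% and 39.2% were higher, so the Cyp1a2_CA count is near the share of all genes. With the offset 3 dendritic cell genes were higher in Cyp1a2_CA and 2 in Gls2_CA. Siglech, a lectin gene of plasmacytoid dendritic cells, had 1.75 and 1.70, and Zbtb46, a factor of classical dendritic cells, 1.35 and 1.30. The rest of the list went both ways in Cyp1a2_CA and was not called. Xcr1 was -0.84, Clec9a 0.40 and Flt3 0.77 (edgeR adjusted p = 0.056, 0.077 and 0.35). With the offset Zbtb46 was 0.51 (edgeR adjusted p = 0.016) and 0.50 (edgeR adjusted p = 0.20). Neutrophil genes went both ways: Csf3r, a growth factor receptor gene, was higher (2.72 and 3.33), and S100a8, a calcium-binding alarmin gene, was not called in Cyp1a2_CA (0.08) and was lower in Gls2_CA (-2.12, edgeR adjusted p = 0.012), though not with the offset (edgeR adjusted p = 0.19). No T and NK gene was called among the 3 tested in Cyp1a2_CA and the 2 tested in Gls2_CA. Their summed level had a median of 3.47 CPM in WT and 2.28 in Cyp1a2_CA, where its highest value of 31.0 was mostly Cd4 (up to 29.6 CPM). Of B cell genes 1 of 3 tested, Cd79a, was lower in Cyp1a2_CA, beside 32.7% of all genes lower, and none could be tested in Gls2_CA.

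**Figure D5:**
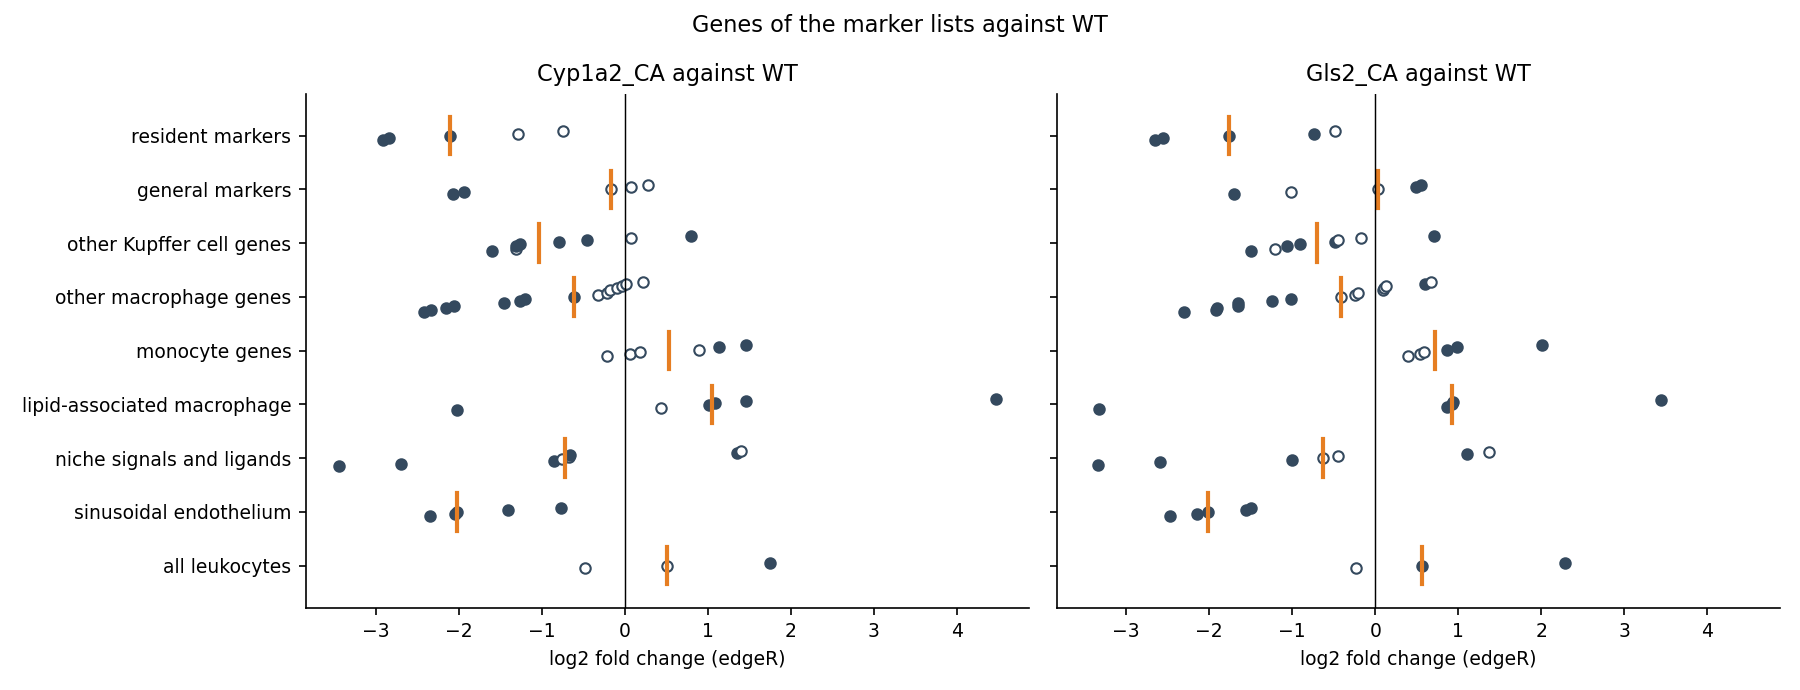
Log2 fold change against WT of every tested gene of the macrophage, niche and endothelial lists and of the 10 markers in both genotypes, with a point per gene, filled where the edgeR adjusted p was under 0.05, and an orange bar at the median of each list. All 5 endothelial genes lie below 0 in both genotypes, and all lipid-associated genes except Fabp5 lie above it.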

How the data were processed

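Bulk RNA was sequenced from 26 libraries in 4 groups, read from the genotype labels. RNA was taken from frozen tissue with TRIzol and a column, treated with DNase and put into Nugen Ovation libraries, per the labels' protocols. The authors deposited raw counts, whole numbers of reads for each gene symbol. The genome build was mm10 (per the submitters' processing notes). The aligner, counter, strand setting and annotation were not given in the sources used here. Reads of overlapping genes may therefore be mixed.

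Counts were summed over libraries whose titles share an animal number (CAB28, GAB242 and GAB294), and no 2 libraries agreed within sampling noise. Nothing in the labels says that animals were otherwise independent cultures or litters, and p-values therefore describe only the spread over these animal numbers. Each pair of groups was fitted alone across all genes with edgeR 4.0.16 in R 4.3.3 (filterByExpr, TMM, robust quasi-likelihood), with Benjamini-Hochberg adjustment and a threshold of 0.05. All log2 fold changes and adjusted p-values are from it unless another tool is named. Levels are CPM from the deposited counts with TMM scaling. Exon lengths, GC content and coordinates came from GENCODE M21 by symbol, which matched 26772 of 35976 entries (74.4%). The offset is a natural spline on each (5 degrees of freedom) fitted per sample. Motifs were searched in RefSeq promoters on both strands.

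The markers and the other gene lists were chosen with earlier results of these data known. The rule for other genes took up to 4 tested genes of each list with the smallest p in Cyp1a2_CA against WT, and for likeness the 5 genes with the highest Spearman correlation of log2 CPM (prior count 2) among those of at least 1 CPM. Il34, Flt3, Ly6c2, Plac8, Trem2, Msr1, Spi1, Mpeg1, Ctss, Arid2, Xist and Ddx3y fall outside the rule and were chosen after their values were seen. Of 97 listed symbols 96 were found, and 1 further result is not reported here. The steps were tested on simulated counts with 200 genes changed 2-fold: edgeR recovered 32% of them in Cyp1a2_CA against WT, 23.5% in Gls2_CA against WT and 1.5% between the tumour groups. Alternatives were RLE and upper-quartile scaling, no filter and a stricter filter of 1 CPM, other replicate units, all 3 groups in 1 fit, DESeq2 1.42.0, limma-voom (limma 3.58.1), fits without libraries with Ttn above 1000 CPM, the length and GC offset, and leaving out each animal.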

Additional observations from a re-analysis of the deposited data

Results flagged for a closer look

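In 30 groups of values (10 markers in Cyp1a2_CA, Gls2_CA and WT), 3 held an animal set apart from the others of its group by Dixon's test at the 95% level, and chance gives about 1 in 20. Clec4f was 66.1 CPM in WT animal 1, against 75.1 to 79.5 in the other WT animals, and that animal still lay above every tumour animal. Marco was 14.9 CPM in GAB242, against 1.88 to 3.97 in the other Gls2_CA animals. Cd68 was 18.2 CPM in CAB145, against 4.62 to 11.2 in the other Cyp1a2_CA animals.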

How the results depend on the processing

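Clec4f, Vsig4, Cd5l and C1qa kept their direction and their calls in 26 of 26 alternatives in Cyp1a2_CA against WT and in 22 of 22 in Gls2_CA against WT, as did Cd163 in the 26 of Cyp1a2_CA. Cd163 in Gls2_CA was called in 6 of 22. Timd4 was called in 3 of 26 and 13 of 22, Marco in 9 of 26 and 1 of 22, Csf1r in 1 of 26 and 10 of 22, and Cd68 in 1 of 26 and 12 of 22. Markers called higher in Cyp1a2_CA numbered 1 with the length and GC offset. In Gls2_CA they numbered 0 with upper-quartile factors, with every library as a replicate and with all 3 groups in 1 fit, 1 with the offset, and 0 to 2 when each animal was left out. The Csf1r log2 fold change in Cyp1a2_CA was -0.15 with upper-quartile factors, -0.0012 without the high-Ttn libraries, -0.55 with the offset and -0.023 to 0.17 when each animal was left out. In Gls2_CA it was -0.11 with the offset. Adgre1 in Gls2_CA, and with it the median of the general markers, was -0.20 with upper-quartile factors and -0.18 to 0.16 when each animal was left out. With the offset that median was -0.11. In Gls2_CA Itgam was -0.083 with the first library of each animal and -0.33 to 0.61 when each animal was left out, and Cx3cr1 was -0.0066 with limma-voom. Between the tumour groups Timd4 was 0.0011 with RLE factors and with the offset, 0.0037 with all 3 groups, 0.011 without the high-Ttn libraries and -0.32 to 0.22 when each animal was left out, Adgre1 -0.41 to 0.012 and Marco -1.25 to 0.12. Genes called between the tumour groups numbered 5 lower and 1 higher with every library as a replicate. Upper-quartile factors moved the median log2 fold change of all genes from 0.17 to -0.049 in Cyp1a2_CA and from 0.14 to -0.088 in Gls2_CA, so marker values with them sit lower by that shift. The causes of the other changes were not tested.

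No paired analysis was possible because the groups share no replicate numbers that tie animals to each other. WT libraries were shallower than tumour libraries, and Timd4 and Marco had the lowest mean CPM of the 10 markers in WT.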
